A study of Xenopus laevis with 6 samples.

Results

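The proteasome is the protease that destroys proteins tagged with ubiquitin, and its subunit genes were followed here in an African clawed frog, Xenopus laevis, at the level of the whole embryo. The genes were taken by name, as every row of the count table whose name starts with psm, a letter from a to g and a digit. This gave 66 of the 45090 rows, from 38 gene names, since most genes of this allotetraploid frog are listed as an L and an S copy (homeologs). Of these, 1 row, psmc3ip.L, shares the name but encodes a factor of meiotic recombination in yeast and mouse and no proteasome subunit, which leaves 65 rows of subunits, activators and assembly factors. Names such as psma1, psma5, psma7, psmb4, psmb6, psmc4, psmd4, psmd12, psme2 and psmf1 did not match a row and are not analysed here.

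Poly(A)-selected RNA was sequenced from 3 libraries of half-size embryos and 3 libraries of intact embryos, all wild-type, all fertilised in vitro and all grown to late gastrula (Nieuwkoop and Faber stage 12.5). The half-size embryos, called twins in the labels, grew from blastomeres that were separated when the embryo had 2 cells. The intact embryos were not treated. Libraries of the 2 groups that share a replicate number came from siblings, so each number is called a sibling batch here. The sources used here do not say how many embryos a library pooled. Libraries held between 20069300 and 29284864 counts, and 1 count equalled between 0.0348 and 0.0501 CPM (the count scaled to the library's size, with TMM factors).

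The proteasome has a barrel-shaped core particle, built from rings of alpha and beta subunits with the cutting sites inside on some of the beta subunits. A regulatory particle caps the barrel: its base holds a ring of ATPases that unfold substrates and its lid removes ubiquitin before they enter. In frog eggs and early embryos the proteasome is known for destroying cyclins and other regulators at each cell division, and beta-catenin, which takes part in setting the dorsal side, is degraded by it as well. Roles of single subunits below are those known from the human and yeast proteins.

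Taken as a whole, the proteasome genes, counted with psmc3ip.L, took between 0.308% and 0.320% of all counts in any library. The difference between the groups in this share was not tested. The 66 rows together held 0.312%, 0.320% and 0.315% of all counts in half-size replicates 1, 2 and 3, against 0.313%, 0.314% and 0.308% in intact replicates 1, 2 and 3. The half-size library was above its sibling in pairs 2 and 3 and below it in pair 1, and the ranges of the groups overlapped. Their summed level was 3140 ± 87.0 CPM in half-size and 3143 ± 86.4 CPM in intact libraries (SD, n = 3 each), so the means lay closer together than the libraries of either group. In whole-embryo RNA, fewer cells of a type and less RNA per cell cannot be told apart.

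Half-size and intact embryos were compared to find genes whose RNA level differs between them. Half-size embryos came from separated blastomeres and intact embryos were not treated, so embryo size and the separation cannot be told apart. Of the 66 rows, 61 passed the filter on low counts, or 60 without psmc3ip.L. None of the 61 passed the threshold between half-size and intact embryos in the fit without or with pairing. In a model holding nothing but the group, edgeR's quasi-likelihood test called 0 of the 61 at an adjusted p under 0.05, and 0 had an unadjusted p under 0.05. In that fit the share called among all 21673 genes tested was 0%, and 3.58% had an unadjusted p under 0.05. Without pairing, DESeq2 and limma-voom called 0 members as well, beside 52 and 0 of all genes. With the sibling batch as a block, which is called the paired fit, 0 of 61 members were called again, where 5.92% of all genes were (1.99% higher and 3.93% lower in half-size embryos). In the paired fit 5 members had an unadjusted p under 0.05, 8.20% of those tested, against 22.6% of all genes. They were 3 higher in half-size embryos, where 10.2% of all genes were, and 2 lower, where 12.4% were. Over all members 30 of 61 values were above 0, beside 50.4% of all genes, and 29 had the same sign in all 3 pairs, 47.5% beside 44.1% of all genes.

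The sizes of change that the paired fit leaves room for were small for most members. In the paired fit the 95% interval of the fold change lay wholly within 1.5-fold in either direction for 52 of 61 members, beside 52% of all genes tested, and within 2-fold for 59, beside 81.9%. Without pairing the intervals were wider, and 29 members (17.8% of all genes) lay within 1.5-fold and 55 (55.4% of all genes) within 2-fold. The 9 members whose paired interval reached past 1.5-fold were psmb8.L, psmd14.L, psmd6.S, psme1.L, psmd9.S, psmd10.L, psmd10.S, psmg4.L and psmg4.S, and those reaching past 2-fold were psmd9.S and psmg4.L. The median paired log2 fold change was −0.01 over the members and 0.00 over all genes, and the median size regardless of sign was 0.12 over the members and 0.18 over all genes. A paired change of 1.5-fold or more was estimated for 1 member, psmd9.S, and for 10.1% of all genes. The paired interval reached a median of 0.22 log2 units to either side of the estimate over the members, and 0.34 over all genes. Its width depends on the number of counts, and the members were not compared with genes matched to them in level. Whether the members vary less than such genes was not tested.

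**Figure D1:**
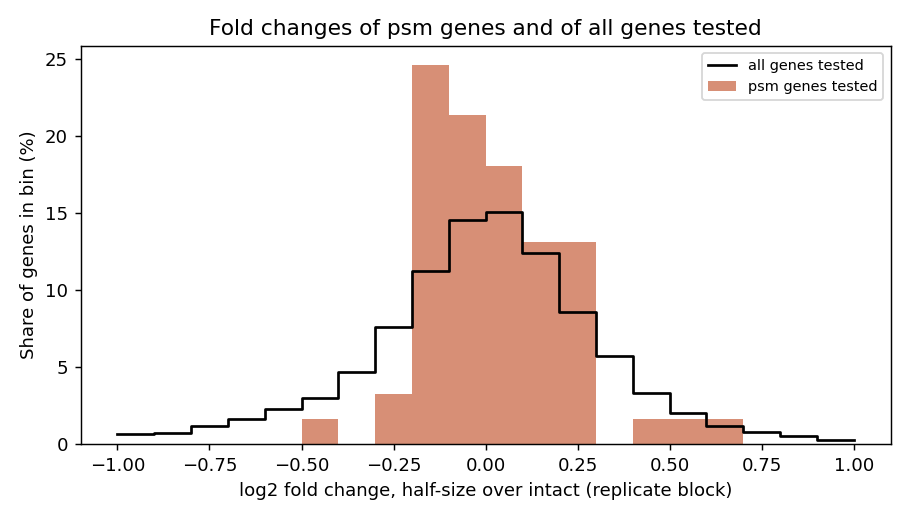
Share of genes (vertical axis, percent) in bins of the paired log2 fold change of half-size over intact embryos (horizontal axis), with the 61 tested psm rows as bars and all 21673 genes tested as a line. The psm rows lie between −0.43 and 0.61, and the 2.00% of all genes below −1 and the 0.577% above 1 fall outside the axis.

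The alpha ring of the core, which forms the gate of the barrel, is represented by both homeologs of psma2, psma3, psma4 and psma6. All 8 paired log2 fold changes were below 0, between −0.19 and −0.03, and none passed the threshold. The lowest was that of psma6.S (−0.19, adjusted p = 0.312). Summed over the 8 rows the level was 420, 376 and 381 CPM in half-size replicates 1, 2 and 3, against 456, 394 and 425 CPM in intact replicates 1, 2 and 3. Each half-size library lay below its intact sibling, while the ranges of the groups overlapped. The summed activator rows did the same, at 436, 372 and 460 CPM in half-size and 473, 373 and 516 CPM in intact libraries. The sum of the lid rows lay above the sibling in each pair, at 881, 951 and 884 CPM in half-size and 876, 940 and 817 CPM in intact libraries. So did that of the structural beta rows, at 215, 230 and 210 CPM in half-size and 208, 229 and 190 CPM in intact libraries. The sums of the base ATPases, base scaffolds, catalytic beta, remaining beta and chaperone rows did not lie on the same side of the sibling in every pair. Differences between the groups in these sums were not tested. The alpha ring row with the most counts was psma2.S, at 89.3, 90.4 and 90.5 CPM in half-size libraries and 94.1, 96.4 and 101 CPM in intact libraries. It was 1 of 4 tested members whose group ranges did not overlap, 6.56% of members where 9.04% of all genes did so. Of these, 1 was lower in half-size embryos, where 4.9% of all genes were, and 3 were higher, where 4.14% were. For psma2.S the paired log2 fold change was −0.11 ± 0.08 (SE; adjusted p = 0.459).

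The beta rings hold structural and catalytic subunits. The structural rows psmb1.S, psmb2.L, psmb2.S, psmb3.L and psmb3.S had paired log2 fold changes between 0.01 and 0.24, none past the threshold. Of these, psmb1.S was at 82.0, 91.9 and 84.6 CPM in half-size and 81.6, 93.2 and 76.9 CPM in intact libraries. The largest value of the 5 was that of psmb3.L, at 25.8, 26.2 and 22.8 CPM in half-size and 24.1, 22.8 and 17.0 CPM in intact libraries (paired log2 fold change 0.24, adjusted p = 0.239).

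The catalytic subunit psmb5 carries the chymotrypsin-like and psmb7 the trypsin-like activity. Levels of psmb5.L were 37.5, 44.2 and 40.0 CPM in half-size and 43.1, 42.5 and 32.2 CPM in intact libraries. For psmb5.S they were 19.6, 26.4 and 20.8 CPM in half-size and 23.1, 28.4 and 20.9 CPM in intact libraries. Levels of psmb7.L were 55.0, 59.2 and 50.8 CPM in half-size and 57.7, 56.3 and 53.2 CPM in intact libraries. For psmb7.S they were 26.4, 30.8 and 34.2 CPM in half-size and 29.2, 33.0 and 30.6 CPM in intact libraries. The groups overlapped for all 4 rows. Their paired log2 fold changes were 0.05 for psmb5.L, −0.12 for psmb5.S, −0.02 for psmb7.L and −0.03 for psmb7.S, with 95% intervals that reached no further than −0.35 and 0.30.

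The remaining beta rows are isoforms of specialised proteasomes or rows near 0. The immunoproteasome subunit psmb8, which takes the place of psmb5 in immune cells and lies in the MHC region of the frog, was counted as psmb8.L. It had 167, 17 and 40 counts in half-size and 172, 50 and 32 counts in intact replicates 1, 2 and 3. The immunoproteasome row psmb9.S and psmb11.L, which encodes the subunit of the thymus in mammals, had 0 counts in every library. A count of 0 allows up to 3 counts, or 0.104 to 0.150 CPM depending on the library, and covers counting error only. The rows psmb7.2.L and psmb7.2.S had at most 4 and 1 counts in any library. These 4 rows and psmg3.S, with at most 1 count, are the 5 members that did not pass the filter.

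The base of the regulatory particle is built around the ATPase ring, counted as both homeologs of psmc1, psmc2, psmc3, psmc5 and psmc6. Of the 10 paired log2 fold changes, 6 were above 0 and 4 below. The lowest p of any member was that of psmc6.L, at 86.9, 81.2 and 103 CPM in half-size and 102, 102 and 120 CPM in intact libraries. Each half-size library was below its sibling, and the ranges of the groups overlapped. Its paired log2 fold change was −0.26 ± 0.08 (SE; 95% interval −0.44 to −0.09, unadjusted p = 0.00752, adjusted p = 0.0805). The homeolog psmc6.S had −0.06 (adjusted p = 0.711).

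In the other direction, psmc5.S was at 57.2, 78.0 and 59.9 CPM in half-size and 49.8, 66.1 and 52.2 CPM in intact libraries. It was higher than the intact sibling in all 3 pairs, by a paired log2 fold change of 0.21 ± 0.09 (SE; unadjusted p = 0.0308, adjusted p = 0.170). Its homeolog psmc5.L, the ATPase row with the most counts, was at 106, 116 and 87.1 CPM in half-size and 113, 111 and 76.1 CPM in intact libraries, with 0.05 (adjusted p = 0.766). Both copies of psmc3 had positive values, 0.20 for psmc3.L and 0.21 for psmc3.S (adjusted p = 0.228 and 0.248), and psmc3.S was another of the rows whose groups did not overlap, at 38.8, 44.1 and 38.7 CPM in half-size and 37.6, 36.1 and 31.4 CPM in intact libraries.

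The scaffolds psmd1 and psmd2, large base subunits on which ubiquitin receptors and the shuttle factors dock, had 3 of 4 paired values above 0. Levels of psmd2.L were 67.7, 84.5 and 90.5 CPM in half-size and 66.0, 68.9 and 72.7 CPM in intact libraries, and those of psmd2.S were 57.5, 74.2 and 79.9 CPM in half-size and 60.3, 61.9 and 57.6 CPM in intact libraries. In both copies half-size replicates 2 and 3 lay above every intact library, while half-size replicate 1 lay among the intact libraries for psmd2.L and just below them for psmd2.S. The paired log2 fold changes were 0.22 ± 0.09 for psmd2.L (SE; unadjusted p = 0.0366, adjusted p = 0.186) and 0.22 ± 0.11 for psmd2.S (SE; adjusted p = 0.254). Without replicate 1 the paired fit called psmd2.S (log2 fold change 0.38, adjusted p = 0.0437), the 1 member called under any setting tried. That fit called 1471 of the 22013 genes tested, beside this 1 of 60 members tested.

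**Figure D2:**
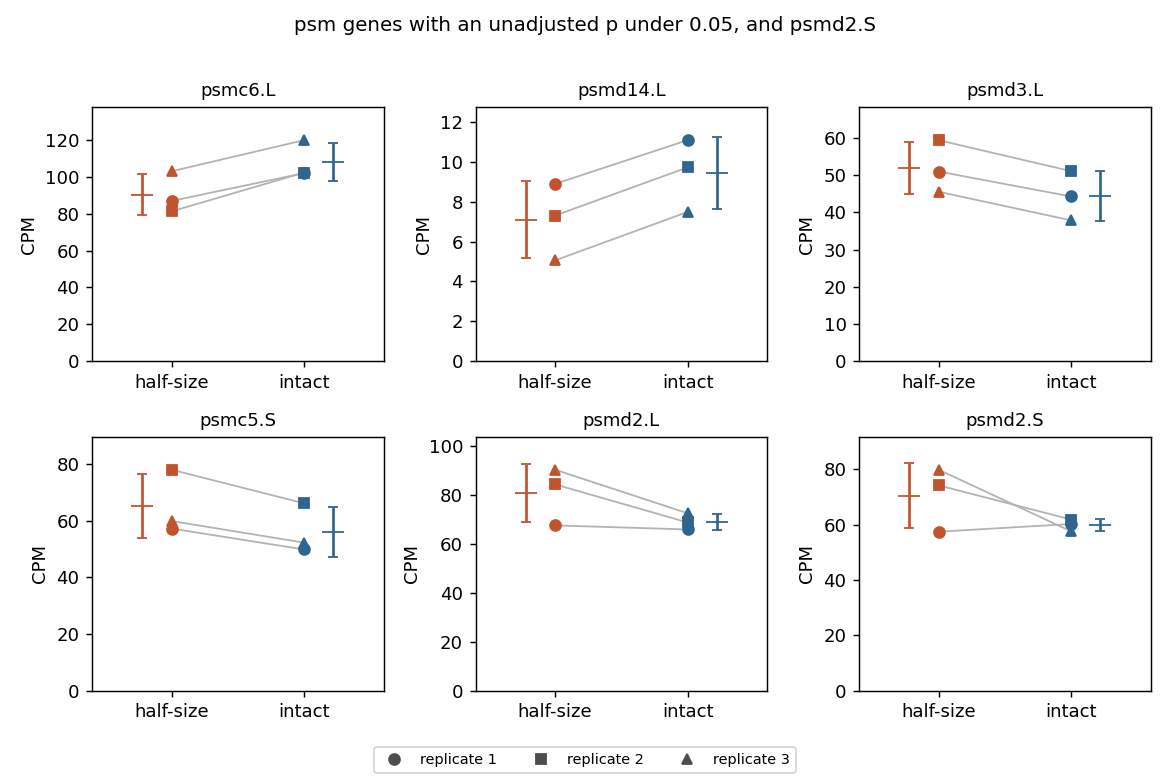
Level in CPM (vertical axis, from 0) of the 5 psm rows with an unadjusted p under 0.05 in the paired fit and of psmd2.S, in half-size (left) and intact (right) libraries; grey lines join siblings, and bars give the mean ± SD of 3 libraries. The groups overlap in all 6 panels, and the 3 sibling lines slope the same way in every panel except that of psmd2.S.

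The lid was counted in 13 rows, 8 with a paired log2 fold change above 0 and 5 below. The lowest value of any member was that of psmd14.L, which encodes the deubiquitinase that cuts ubiquitin chains off substrates. It was at 8.90, 7.31 and 5.06 CPM in half-size and 11.1, 9.73 and 7.49 CPM in intact libraries, below the sibling in each pair while the groups overlapped. Its paired log2 fold change was −0.43 ± 0.14 (SE; 95% interval −0.74 to −0.12, unadjusted p = 0.0116, adjusted p = 0.101). The homeolog psmd14.S, with more counts, was at 23.3, 30.0 and 20.4 CPM in half-size and 25.1, 32.6 and 23.9 CPM in intact libraries (−0.15, adjusted p = 0.428).

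Among the lid rows above 0, psmd3.L was at 51.0, 59.4 and 45.5 CPM in half-size and 44.3, 51.1 and 37.9 CPM in intact libraries, above its sibling in all pairs (paired log2 fold change 0.23 ± 0.09 SE, unadjusted p = 0.0269, adjusted p = 0.158). The value of psmd6.S, 0.29 (adjusted p = 0.301), came mainly from pair 3: it was at 20.8, 24.0 and 22.6 CPM in half-size and 20.6, 22.8 and 13.0 CPM in intact libraries, and leaving out replicate 3 gave 0.04. The row psmd11.S was the third whose groups did not overlap, at 89.8, 85.2 and 89.1 CPM in half-size and 83.9, 79.7 and 81.8 CPM in intact libraries (0.11, adjusted p = 0.481). The lid row with the most counts, psmd11.L, was at 140, 139 and 128 CPM in half-size and 134, 144 and 125 CPM in intact libraries (0.01).

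Activators are alternative caps that open the barrel without ATP. The nuclear activator psme3 was counted as psme3.L, which had more counts than any other member, at 260, 229 and 284 CPM in half-size and 273, 228 and 342 CPM in intact libraries, and as psme3.S, at 48.9, 51.3 and 52.4 CPM in half-size and 50.9, 49.8 and 55.2 CPM in intact libraries. Their paired log2 fold changes were −0.11 and −0.03 (adjusted p = 0.449 and 0.882). The row psme4-like.L, at 116, 83.1 and 110 CPM in half-size and 137, 86.2 and 103 CPM in intact libraries, had −0.06. The interferon-linked activator subunit psme1 was at 1.11, 1.80 and 2.64 CPM in half-size and 1.08, 1.32 and 2.27 CPM in intact libraries for psme1.L (0.25), and at 10.1, 7.31 and 11.6 CPM in half-size and 10.7, 8.51 and 12.9 CPM in intact libraries for psme1.S (−0.15). None of the 5 activator rows passed the threshold.

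Assembly chaperones, which build the proteasome and then leave it, gave the widest intervals, and several had few counts. The chaperone of the base psmd9 had the highest paired value of all members for psmd9.S, 0.61 (95% interval −0.05 to 1.27, adjusted p = 0.257). Its counts were 80, 64 and 83 in half-size and 88, 64 and 19 in intact libraries, so that intact replicate 3 stood below the other 5, and leaving that pair out gave 0.20. For psmd10.L, encoding gankyrin, the counts were 44, 41 and 59 in half-size and 31, 55 and 28 in intact libraries (0.43, adjusted p = 0.329). The alpha ring chaperones psmg1.L and psmg2.L were at 44.4, 58.2 and 48.4 CPM in half-size against 49.6, 67.6 and 50.5 CPM in intact libraries, and at 37.9, 32.1 and 24.0 CPM in half-size against 39.0, 30.4 and 22.1 CPM in intact libraries (−0.15 and 0.05). The row psmg3.L had 0.15. The row psmg4.L had 14, 10 and 11 counts in half-size and 6, 11 and 8 counts in intact libraries (0.56, 95% interval −0.37 to 1.49). Its counts overlapped between groups, while its CPM did not. The lowest half-size library was at 0.415 CPM and the highest intact library at 0.394 CPM. In these libraries 1 count equalled 0.0378 and 0.0493 CPM. The row psmg4.S had −0.20.

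**Figure D3:**
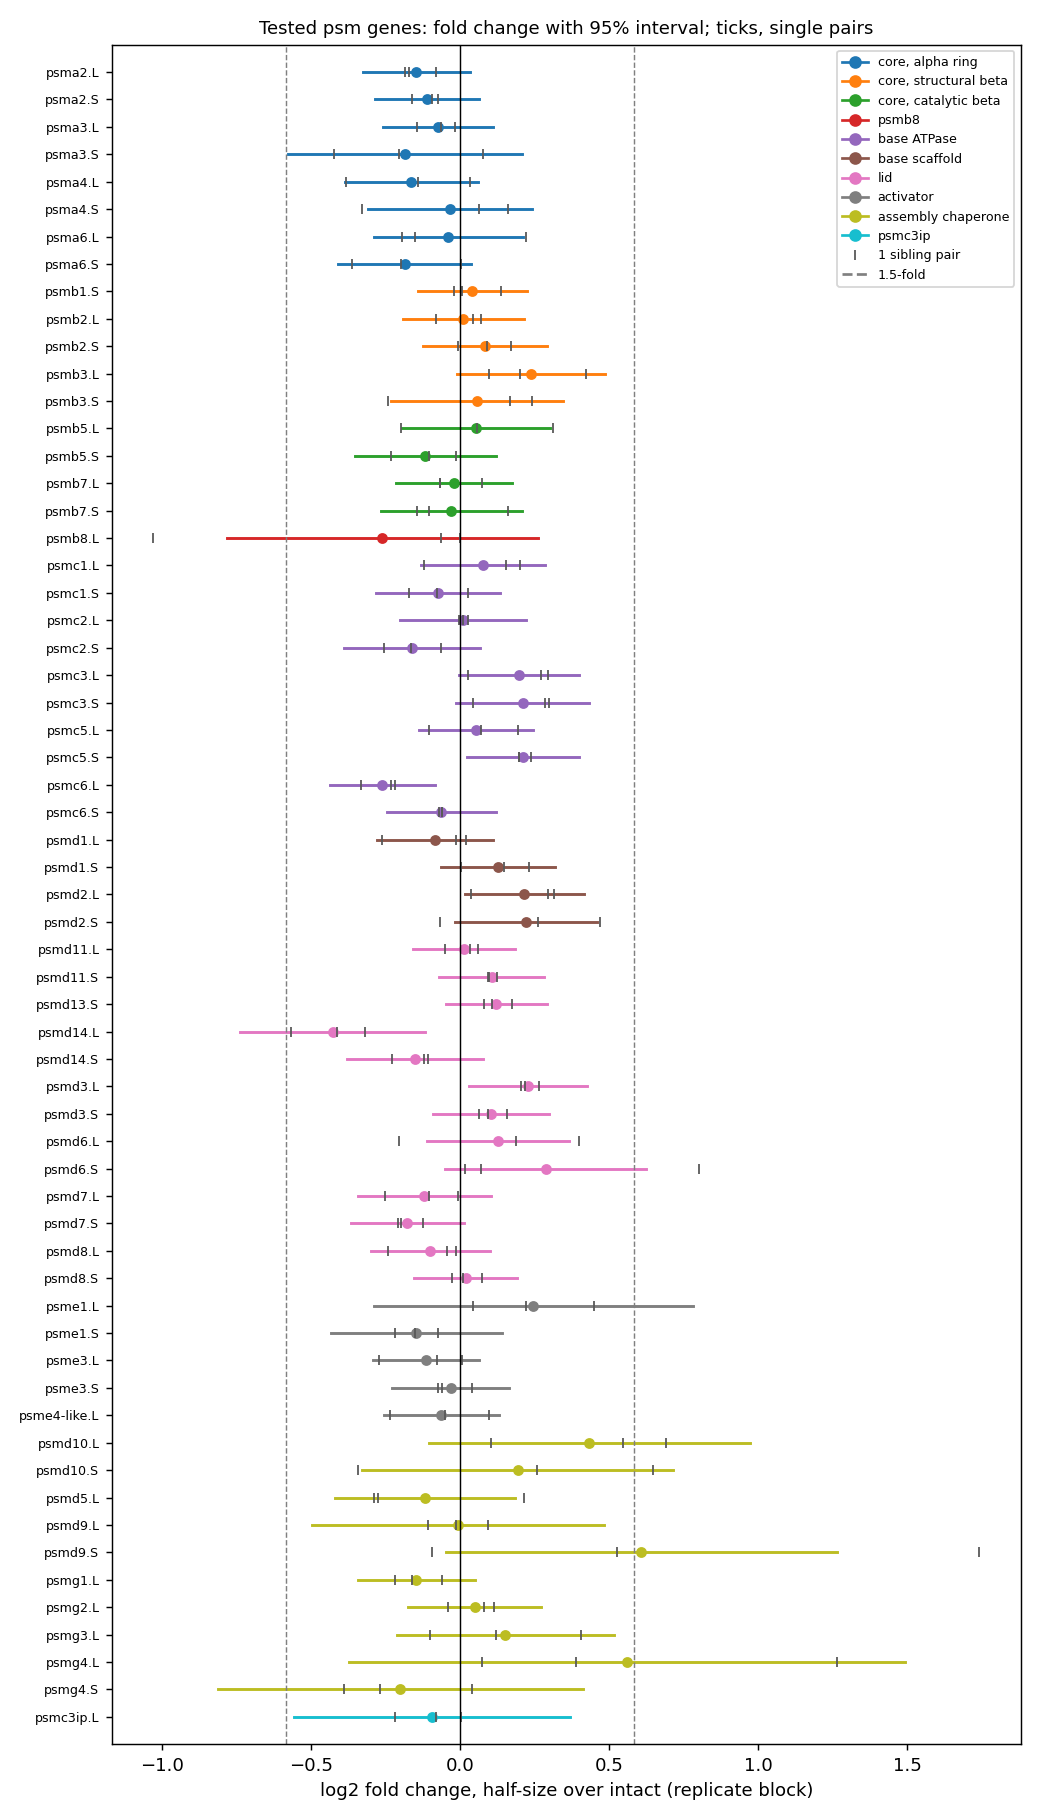
Paired log2 fold change of half-size over intact embryos (horizontal axis) for each tested psm row (1 per line, coloured by its part of the proteasome), with the 95% interval as a bar and the log2 ratio of each sibling pair as a tick. Most intervals lie between the dashed lines at 1.5-fold, and the wide bars belong to psmb8.L, psme1.L, psmc3ip.L and chaperone rows with few counts.

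More members passed a test between sibling batches than between the groups. A test of the batch in the paired fit (edgeR quasi-likelihood, adjusted over all genes tested) called 22 of 61 members, 36.1%, where 49.1% of all genes were called. With a span of at least 1.5-fold between the highest and the lowest batch it called 9 members, 14.8%, where 38.1% of all genes were. The shares of members were thus below those of all genes, a difference that was not tested. The median span between batches was 0.32 log2 units over the members and 0.60 over all genes. Leaving out 1 batch leaves only the other 2 to compare. This called 19 members without replicate 1, which is 31.7%, beside 36.8% of all genes tested. It called 7 without replicate 2 (11.5%, beside 21.2%) and 13 without replicate 3 (21.3%, beside 43.4%). None of the 22 kept its call in all 3 cases. That would take a difference between any 2 batches, which the test of all 3 batches does not require.

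The widest span was that of psmb8.L, at 7.15, 0.852 and 1.51 CPM in half-size and 7.15, 1.74 and 1.58 CPM in intact libraries. Both libraries of replicate 1 stood above the other 4, and the batches spanned 5.45-fold (adjusted p = 9.87e-05). Without replicate 1 the call was lost (adjusted p = 0.553). Between the groups the paired value of psmb8.L was −0.26 on the log2 scale (adjusted p = 0.571); the log2 ratio was −1.03 in pair 2, against −0.00 in pair 1 and −0.06 in pair 3.

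The next smallest p was that of psma4.L, at 74.7, 37.7 and 49.2 CPM in half-size and 73.1, 41.6 and 64.2 CPM in intact libraries, with replicate 1 high and replicate 2 low in both groups (1.87-fold, adjusted p = 0.000724; 0.0601 without replicate 2). Its homeolog psma4.S was at 26.4, 18.0 and 16.6 CPM in half-size and 25.3, 16.1 and 20.8 CPM in intact libraries, again with replicate 1 high (1.52-fold, adjusted p = 0.0150; 0.539 without replicate 1 and 0.0575 without replicate 2). The chaperone psmg2.L spanned 1.67-fold and was lowest in replicate 3 in both groups (adjusted p = 0.00241; 0.0599 without replicate 3).

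Of the 61 members, 12 were called and highest in replicate 2, which is 19.7%, beside 19.6% of all genes tested. A further 7 (11.5%, beside 17.2% of all genes) were called and highest in replicate 1, and 3 (4.92%, beside 12.2%) in replicate 3. Called and lowest in replicate 3 were 11 of the 61 members (18.0%, beside 11.4% of all genes). In the same way, 6 were called and lowest in replicate 2 (9.84%, beside 19.4%) and 5 in replicate 1 (8.20%, beside 18.3%). The 12 highest in replicate 2 were psmd1.L, psmd1.S, psmd3.L, psmd3.S, psmd6.L, psmd14.S, psmc2.S, psmc3.L, psmc5.L and psmc5.S, with psmb5.S and psmg1.L. Of these, psmd1.L was at 68.3, 110 and 94.8 CPM in half-size and 81.9, 111 and 93.4 CPM in intact libraries (1.47-fold, adjusted p = 0.00525; 0.0704 without replicate 1 and 0.0919 without replicate 2). The ATPase row psmc3.L, at 75.4, 88.5 and 60.0 CPM in half-size and 74.0, 73.4 and 48.8 CPM in intact libraries, was lowest in replicate 3 in both groups (1.49-fold, adjusted p = 0.00430; 0.452 without replicate 3).

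Of the 5 activator rows, 4 were called between batches, where 49.1% of all genes were; whether activators differ from the other members in this was not tested. In psme3.L replicate 3 was highest and replicate 2 lowest in both groups (1.37-fold, adjusted p = 0.0101; 0.222 without replicate 2 and 0.0670 without replicate 3). In psme4-like.L replicate 1 was highest and replicate 2 lowest in both groups (1.49-fold, adjusted p = 0.00438; 0.249 without replicate 2). In psme1.L replicate 3 was highest (2.23-fold, adjusted p = 0.0215; 0.0889 without replicate 1 and 0.262 without replicate 3). In psme1.S replicate 2 was lowest (1.54-fold, adjusted p = 0.0215; 0.417 without replicate 2 and 0.0760 without replicate 3). The other called rows were psmd14.L and psmg3.L, each highest in replicate 1.

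**Figure D4:**
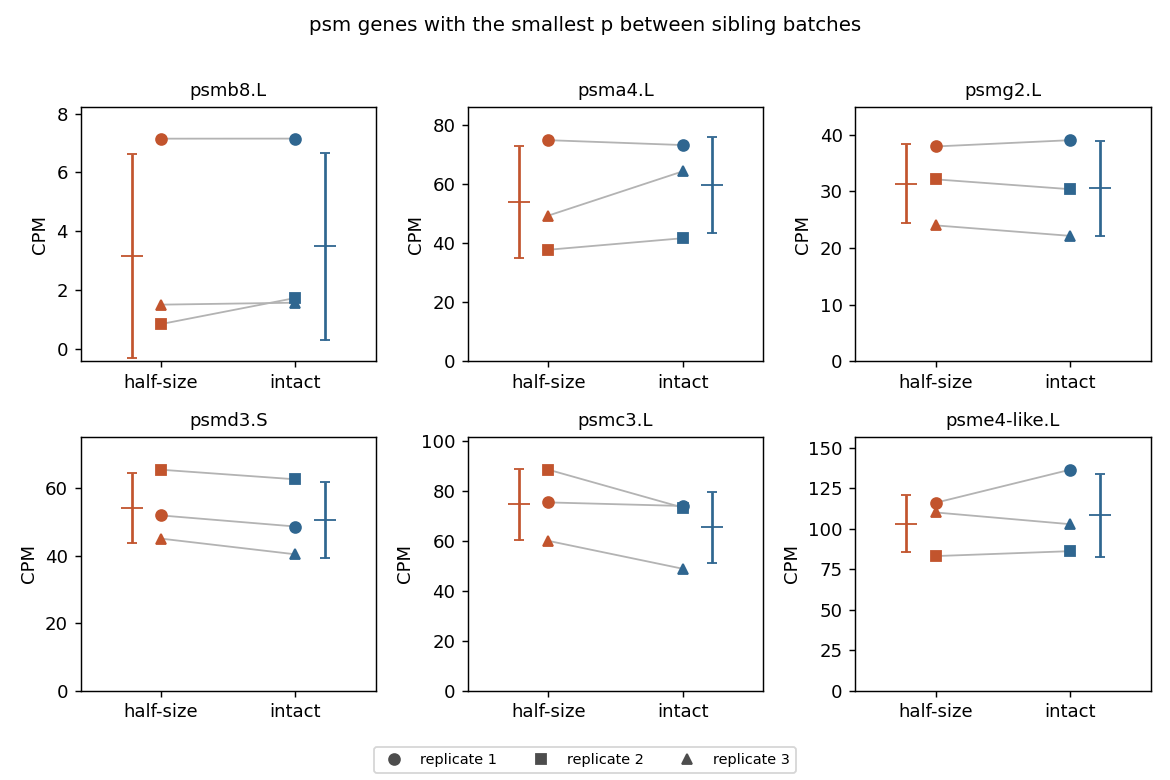
Level in CPM (vertical axis) of the 6 psm rows with the smallest p between sibling batches, in half-size (left) and intact (right) libraries, with a marker shape per replicate number, grey lines joining siblings and bars for the mean ± SD of 3 libraries. In psmb8.L both libraries of replicate 1 are at 7.15 CPM and the other 4 are at or below 1.74 CPM.

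The ratio of the L and S copies of a gene was compared between the groups. Of 28 member pairs with both an L and an S row, 27 had enough counts. The balance of L and S counts differed between half-size and intact embryos in 0 of the 27 (edgeR quasi-likelihood, library as a block; 0 of 6667 pairs of all genes, 0%). At an unadjusted p under 0.05 it differed in 0 member pairs and 2.85% of all pairs. When the copy ratio was also allowed to differ between sibling batches, 0 member pairs and 3.07% of all pairs were called, and psmd1 and psmc6 had an unadjusted p under 0.05 (0.0270 and 0.0372; adjusted p = 0.230 and 0.268; 16.2% of all pairs had an unadjusted p under 0.05).

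For psmc6 the L copy took 56.6%, 52.9% and 61.6% of the pair's counts in half-size and 59.5%, 57.6% and 64.0% in intact libraries. For psmd1 it took 49.98%, 54.5% and 56.4% in half-size and 54.6%, 57.2% and 60.0% in intact libraries. In both genes each half-size library gave the L copy a smaller share than its sibling did, and the ranges of the groups overlapped. Between sibling batches the balance differed in 10 of 27 member pairs, 37.0%, where it did in 34.6% of all pairs: psma6, psmb2, psmc3, psmc5, psmc6, psmd1, psmd14, psmd7, psmd8 and psme3. The lowest p of these was that of psmc5, whose L copy took 64.8%, 59.8% and 59.3% in half-size and 69.5%, 62.6% and 59.3% in intact libraries, highest in replicate 1 of both groups (adjusted p = 0.00539).

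The copy with more counts was L in 16 pairs and S in 8 (edgeR quasi-likelihood over both groups, adjusted p under 0.05), where 48% of all pairs had more counts on L and 35.3% on S. These are counts per row and not per length, since transcript lengths are not in the sources used here. The most uneven pairs were psmg3, with 869 counts on L and 3 on S over the 6 libraries, psma3, with 94.2% on L, psmd6, with 85.2% on L, psme3, with 83.9% on L, and psme1 and psmd14, with 14.3% and 24.2% on L. The pairs not called were psmb2, psmd3 and psmd9, with 52.9%, 47.8% and 42.6% on L. How reads that fit both copies were counted is not stated, so an uneven pair is uncertain to that extent.

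**Figure D5:**
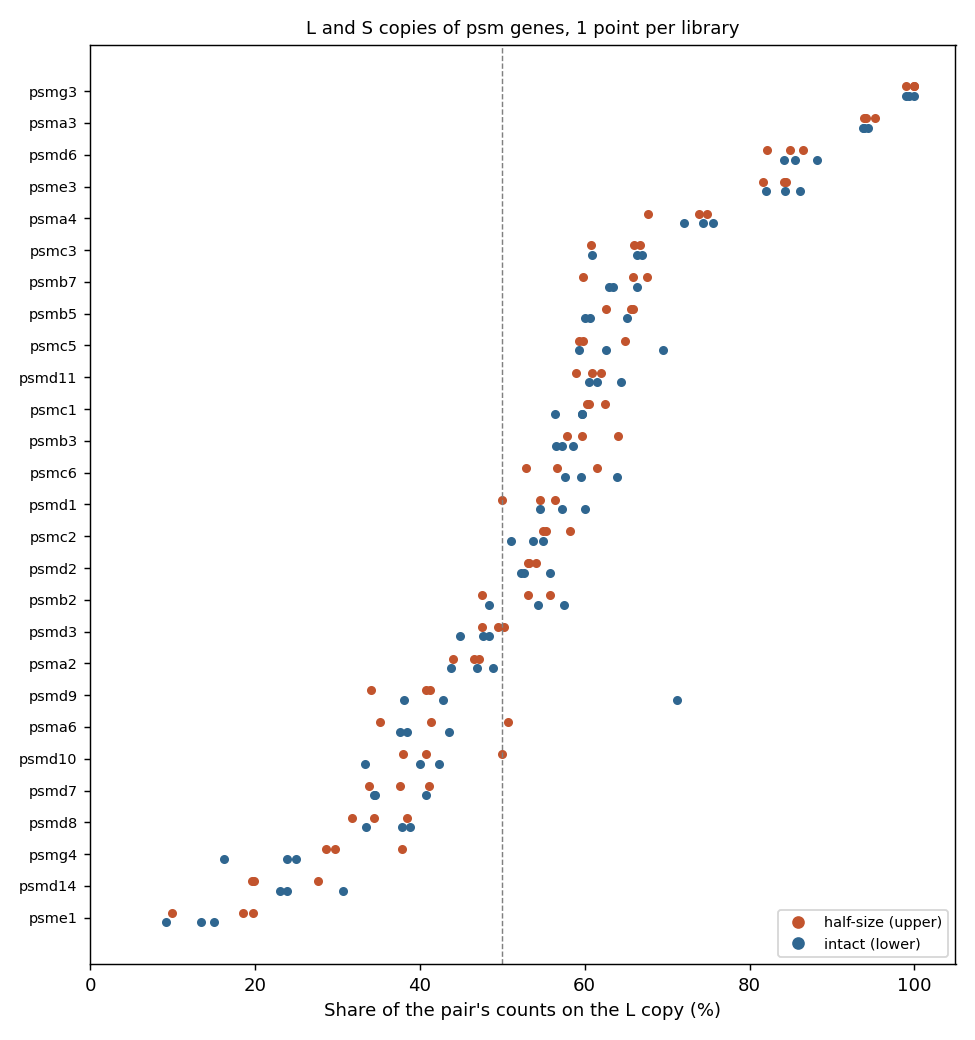
Share of a pair's counts that fell on the L copy (horizontal axis, percent) for the 27 psm pairs tested, 1 point per library, half-size above intact on each line. Shares run from 9.19% in psme1 to 100% in psmg3, and the intact point of psmd9 at 71.2% is replicate 3, where psmd9.S had 19 counts.

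Genes that work with the proteasome were read from a list of 51 symbols, of which 33 matched 59 rows. The symbols stand for ubiquitin enzymes, ubiquitin receptors and shuttles, deubiquitinases, assembly factors, the p97 segregase and regulators. Some, such as adrm1, encode parts of the proteasome whose names do not start with psm, and the choice of members by name left them out. The 4 symbols of ubiquitin precursor genes on the list matched no row. Of 56 rows tested, 0 rose and 0 fell in either fit (edgeR), with a median paired log2 fold change of 0.00. Of all genes tested, 0% were called without pairing and 5.92% in the paired fit. The rows closest to the threshold in the paired fit were adrm1.L, which encodes a ubiquitin receptor of the base, nfe2l3.S, a transcription factor gene of the family that drives proteasome genes in mammals, and nploc4.L, a cofactor of the p97 segregase. Their paired log2 fold changes were 0.62, −0.42 and 0.45 (adjusted p = 0.0546, 0.0584 and 0.0608). For adrm1.L the mean was 9.77 CPM in half-size and 6.58 CPM in intact libraries, and the groups overlapped. They also overlapped for nploc4.L, with means of 14.2 CPM in half-size and 10.3 CPM in intact libraries. For nfe2l3.S, with means of 14.2 CPM in half-size and 19.0 CPM in intact libraries, the groups did not overlap. Of all genes tested, 4.9% did not overlap and were lower in half-size embryos. Groups also did not overlap for txnl1.S and faf1.L, higher in half-size embryos, and for ube3c.L, lower. In either direction, 9.04% of all genes tested did not overlap. The homeologs adrm1.S, nfe2l3.L and nploc4.S had 0.25, −0.45 and 0.05 (adjusted p = 0.402, 0.124 and 0.853). The rows adrm1.L, nfe2l3.S, nploc4.L, txnl1.S, faf1.L and ube3c.L were chosen after their values were seen.

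The authors' deposited table listed 60 of the 66 members under a name used once and gave each an adjusted p of 1. In the authors' deposited table the smallest p-value of a member was 0.228, and log2 fold changes of members ran from −0.41 to 0.52, as half-size over intact, a direction its header does not name and which was read from the agreement in sign with the counts for 60 of 60 members. Its adjusted p was under 0.05 for 21 of 19508 uniquely named genes.

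Lists of tissue markers were read in the same libraries. They were chosen with earlier results of these data known, so their counts are a description. In the paired fit 1.99% of all genes were higher and 3.93% lower in half-size embryos. Summed levels of the epidermis list were 3499 to 3721 CPM in half-size and 4048 to 4351 CPM in intact libraries, and 10 of its 16 tested rows fell and 2 rose in the paired fit (edgeR). Those of the multiciliated cell and ionocyte list were 174 to 200 CPM in half-size and 275 to 316 CPM in intact libraries, with 12 of 16 falling and 0 rising. Those of the organizer list were 1460 to 2265 CPM in half-size and 1161 to 1622 CPM in intact libraries, with 10 of 22 rising and 0 falling. Without pairing, 0 rows of the 3 lists were called. None of the listed rows was at 0 in every library. The part of tissue makeup in the values of the proteasome genes was not tested.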

How the data were processed

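The deposited table holds read counts per gene and library, whole numbers that were not normalized. Per the submitters' processing notes the tools included TopHat2, HTSeq and DESeq. Neither genome build nor annotation is stated there, and coordinates are left out. The kit keeps strand, per the labels' protocols. The authors' deposited table of their own comparison gives a fold change as a linear ratio, its log2 value, and a p-value with an adjusted p-value per gene.

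Counts were tested with edgeR 4.0.16 in R 4.3.3 (filterByExpr, TMM, glmQLFit, glmQLFTest, two-sided, Benjamini-Hochberg over all genes tested, threshold 0.05), with the group as the only term. DESeq2 1.42.0 and limma-voom (limma 3.58.1) were alternatives. SE and 95% intervals come from the F statistic and its degrees of freedom. The replicate number as a block gave the paired fit. The labels name siblings, and deviations from group means correlated at 0.75, 0.82 and 0.68 within numbers 1, 2 and 3, so the numbers pair the libraries. The paired fit moved the number of genes called, as the results give. Any 2 libraries differed by more than sampling noise (chi-square over degrees of freedom, 13.3 to 91.3), so each library was counted as 1 sample. The labels call the replicates biological. The balance of L and S copies was fitted with both copies of a library as separate columns, library as a block.

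The members and lists were chosen with earlier results of these data known. Named members were those past a threshold between the groups and the 5 highest and 5 lowest paired log2 fold changes. They also included the row with the most counts in each family, and all catalytic, activator and psmg rows. Other rows named for the group comparison, batches, copies or pairs were chosen after their values were seen. Among these were rows with an unadjusted p under 0.05 and rows whose groups did not overlap. List symbols were matched by name or by synonyms in the RefSeq table of assembly Xenopus_laevis_v10.1.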

Additional observations from a re-analysis of the deposited data

How the results depend on the processing

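No member was called between half-size and intact embryos under any alternative except the paired fit without replicate 1, which called 1 (range over the paired fits that leave out a replicate, 0 to 1). The count over all genes moved with the pairing: it was 0 without it, also with DESeq2's size factors, with no filter, with limma-voom, with homeologs summed and without any 1 library, and 52 with DESeq2. With the replicate block it was 1283, with the block and DESeq2 1118, with limma-voom 1364, with DESeq2's size factors 1271, with no filter 2568, with homeologs summed 1048, and 1471, 1055 and 507 without replicate 1, 2 and 3. The replicate block added no member to the calls. Of 449 values of 25 named members under the alternatives, 36 changed sign and 0 were newly called. The sign changes fell in 16 of the 25 members. All were in settings that left out a library or a replicate, with up to 8 in 1 such setting. Members called between batches were 9 at 1.5-fold or more and 7 to 19 when 1 replicate was left out, with the shares of all genes given above. Homeolog pairs with more counts on 1 copy were 24 of 27 in the main fit, beside 5559 of 6667 pairs of all genes. At 1.5-fold or more they were 15 of 27, beside 4990 of 6667. Without replicate 1, 2 and 3 they were 23, 22 and 22 of 27. The counts over all pairs were then 5392 of 6746, 5386 of 6722 and 5259 of 6703. The balance of copies with a replicate block, an alternative chosen after seeing the data, called 0 member pairs. With 3 libraries a group, the paired intervals of psmg4.L, psmg4.S, psmd9.S, psmd10.L, psmd10.S, psme1.L, psmb8.L, psmd14.L and psmd6.S reached past 1.5-fold. The part of low counts in this was not tested.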
